A study of Mus musculus with 15 samples.

Results

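Mitochondrial ribosomal proteins were examined in RNA-Seq libraries of cultured mouse cardiomyocytes. The genes were taken by symbol, as protein-coding genes named Mrpl (large subunit) or Mrps (small subunit) followed by a digit, and 77 of the 14337 genes in the deposited table met this rule. Of these, 48 carried an Mrpl symbol and 29 an Mrps symbol, and all 77 passed the filter for testing, which required the average log2 RPKM to be 0 or more. RPKM is a read count scaled to the length of the transcript and the size of the library. The annotation held 78 such symbols, and the remaining one, Mrpl53, was not analysed here. The study asked whether a low dose of cilengitide acts on cardiomyocytes enlarged by angiotensin II. The cells were primary cardiomyocytes from whole hearts of C57/BL6 wild-type pups of 1 to 3 days, and every group shared this origin and a 24 h starvation in 0.5% FBS before treatment. There were 3 control libraries from cells given saline (S1, S2 and S3) and 4 libraries from cells given 1 µM angiotensin II (AngII, S5 to S8). A further 4 libraries came from cells given 20 nM cilengitide (ldCil, S9 to S12), and 4 from cells given both at the same doses (AngII + ldCil, S13 to S16). Cilengitide was developed as an αv integrin antagonist, but the study states that low doses alter integrin signalling without acting as an antagonist. Neither the labels nor the methods say that the libraries of a group came from separate cultures, so the spread that p-values are based on may be technical.

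Mitochondrial ribosomes translate the few messages of the mitochondrial genome, nearly all of which code for subunits of the respiratory chain. Their RNA is made from mitochondrial DNA, but all of their proteins are encoded in the nucleus, made in the cytosol and imported. Many of the proteins have a counterpart in bacterial ribosomes, whereas others are found only in mitochondria. Heart muscle is rich in mitochondria and depends on oxidative phosphorylation.

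The files held no read counts, so the depth behind each value is unknown. The 12 cardiomyocyte markers had a median level of 9.93 log2 RPKM and their mean varied from −0.16 to 0.20 around its average over the libraries. The 9 fibroblast markers had a median of 8.28 log2 RPKM, so fibroblast genes were abundant as well, and none of the 7 erythroid markers was among the genes tested. Libraries of 1 group were not alike. The 15 interferon-stimulated genes, which cells switch on in an antiviral response, varied most, and their levels cut across the treatments. With each gene centred on its mean they averaged 2.10 to 2.74 log2 units in S1, S3, S5, S9 and S10, −2.03 to −1.57 in S6, S7, S11, S12, S15 and S16, and −0.79 to 0.55 in S2, S8, S13 and S14. The AngII libraries other than S5 and all AngII + ldCil libraries lay below every control library, so in them this difference and the treatment cannot be told apart, while S5 and 2 of the ldCil libraries lay at the level of the high controls. Of the cell type markers, S16 (AngII + ldCil) had a mean of −1.34 for the fibroblast markers and −1.52 for the 8 macrophage markers. S13 (AngII + ldCil) had 0.98 for the 8 endothelial markers. S5 (AngII) had 0.95 for the macrophage markers, and it stood apart in the mitochondrial ribosomal proteins themselves. Member counts and medians that rest on S5 or S16 are therefore given with and without it. For other lists this was done in part. In bulk samples, fewer cells of a type and less RNA per cell cannot be told apart.

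The 77 genes formed a narrow band of moderate expression. Their mean level per length ran from 1.16 log2 RPKM (Mrps18c) to 6.22 (Mrpl12), with a median of 4.59 against 3.85 for the 12848 genes tested. The quartiles of the members, 4.13 and 4.94 log2 RPKM, lay 1.76-fold apart, whereas those of all genes tested lay 6.09-fold apart. The members also varied little between libraries, with a median SD of 0.21 log2 units over the 15 libraries against 0.29 for all genes tested. That comparison was not matched for level, and the lowest members were among the most variable. The share of the variance that lay between the 4 groups was 17.7% for the median member and 18.3% for the median gene.

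**Figure D1:**
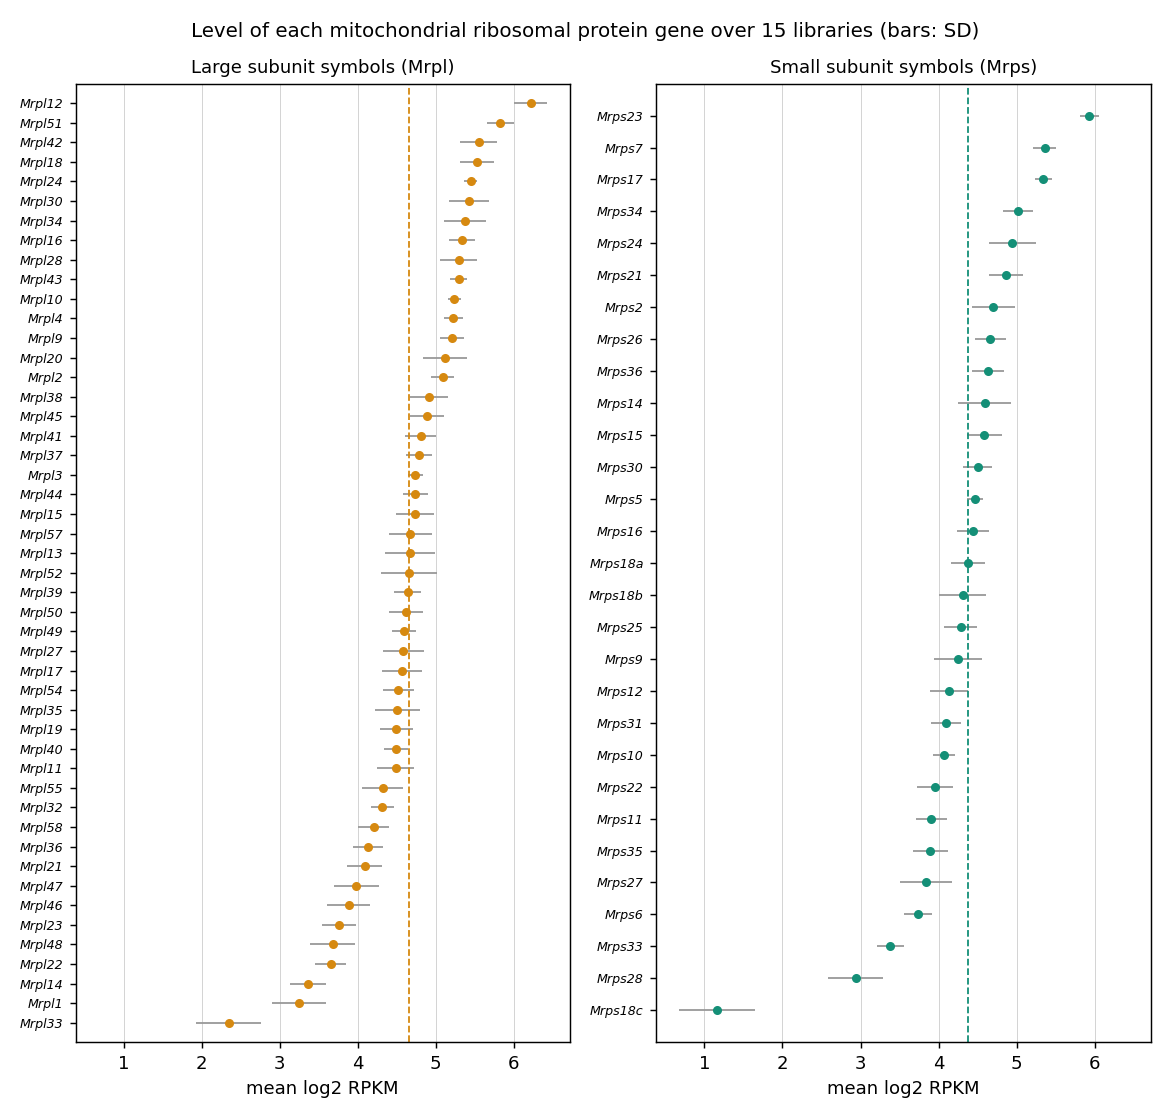
Mean log2 RPKM of each of the 48 Mrpl genes (left) and 29 Mrps genes (right) over the 15 libraries, with bars for the SD and a dashed line at each median (4.66 and 4.38). Most genes lie between 4 and 5, with Mrpl33 and Mrps18c far below the others of their subunit.

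The most abundant member was Mrpl12, the stalk protein through which the large subunit meets translation factors, at 6.22 ± 0.21 log2 RPKM (SD, n = 15). It was followed by Mrps23, a protein of the small subunit found in mitochondria but not in bacteria, at 5.93 ± 0.12 log2 RPKM, and by Mrpl51 at 5.83 ± 0.17. Mrpl42 lay at 5.55 ± 0.24 log2 RPKM and Mrpl18, whose bacterial counterpart binds the small RNA of the large subunit, at 5.52 ± 0.22. The levels of Mrps23 and Mrpl51 differed by less than their spread over libraries, as did those of Mrpl42 and Mrpl18. Mrpl10, which anchors the Mrpl12 stalk, lay lower at 5.24 ± 0.08 log2 RPKM.

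At the other end, Mrps18c had 1.16 ± 0.49 log2 RPKM, Mrpl33 had 2.34 ± 0.42 and Mrps28 had 2.94 ± 0.36, followed by Mrpl1 at 3.25 ± 0.34 and Mrpl14 at 3.36 ± 0.23. The values per length depend on the length assigned to each gene. The annotated exons of Mrpl33 cover 7326 bases and those of Mrps28 cover 783, against a median of 2533 over the members, and the lengths used by the authors were not given. In Mrps18c, 23.2% of the exonic bases are shared with an annotated gene on the same strand (Gm43511), so its reads may have been divided. Mrps18c, Mrpl33, Mrps28 and Mrpl1 were also among the 5 members with the largest SD, the other being Mrpl52 at 0.36 log2 units. The steadiest members were Mrpl24 and Mrpl10, each with an SD of 0.08 log2 units, then Mrpl3 (0.09), Mrps5 (0.11) and Mrps17 (0.11), all of them proteins with bacterial counterparts. As a class such members were not steadier, with a median SD of 0.22 log2 units against 0.20 for those without a counterpart.

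Mammals carry 3 paralogues of the bacterial small subunit protein S18. Mrps18a, whose protein sits in the large subunit in structures, lay at 4.38 ± 0.21 log2 RPKM and Mrps18b at 4.31 ± 0.30, a difference smaller than their spread, whereas Mrps18c was more than 3 log2 units lower. Mrps18b showed 4.92 log2 RPKM in S11 and 5.03 in S16, against 3.82 to 4.45 in the other libraries, and 30.5% of its exonic bases are overlapped by a gene on the opposite strand (Gm16279). Mrps30, also a large subunit protein despite its name, lay at 4.50 ± 0.19 log2 RPKM. Mrpl58, a peptidyl-tRNA hydrolase of the release factor family that frees stalled ribosomes, lay at 4.20 ± 0.20 log2 RPKM. Mrps36, a protein since assigned to the 2-oxoglutarate dehydrogenase complex, lay at 4.63 ± 0.21 log2 RPKM.

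Proteins with and without a bacterial counterpart had similar medians. The 45 members with a counterpart had a median of 4.58 log2 RPKM and the 32 without had 4.61. Their spread differed, since the quartiles lay 2.17-fold apart in the former and 1.44-fold apart in the latter. The 5 mitochondrial ribosomal proteins with other symbols, such as Dap3 and Ptcd3 of the small subunit, had a median of 5.26 log2 RPKM.

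The genes are scattered over 17 chromosomes, with no more than 11 on one of them (chromosome 11). A shared feature was the close neighbour. For 33 of the 77 members (42.9%), the 5′ end of another protein-coding gene lay within 1000 bases on the opposite strand, against 16.3% of the 11770 protein-coding genes tested. In 1 case both partners were members, Mrps11 and Mrpl46 on chromosome 7, whose 5′ ends lie 412 bases apart. Other partners were mitochondrial too. Mrps12 faces Sars2, which charges mitochondrial serine tRNA, Mrpl43 faces the mitochondrial DNA helicase gene Twnk, and Mrpl36 and Mrpl47 face the complex I genes Ndufs6 and Ndufb5.

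Promoter windows of 300 bases (250 before and 50 after the transcription start, RefSeq, build GRCm38.p6) were found for 68 of the 77 members. They were searched on both strands for GCGCANGCG (NRF1, where N is any base), CCGGAAG (ETS factors such as GABP), AAGATGGCG (YY1) and, for the box named after these letters, TATAAA. The first of these is nearly its own reverse complement, so 1 site can match on both strands. The NRF1 letters were found in 16 of the 68 members (23.5%) and in 7.03% of the 27025 genes in the promoter table. The ETS letters were found in 25 members (36.8%) against 9.93% of all genes, and the YY1 letters in 8 (11.8%) against 1.64%. The TATA letters were found in 5 members (7.35%) against 15.7% of all genes. In all, 35 members (51.5%) held the NRF1 or the ETS letters, against 15.5% of genes. Median GC content was 58.5% in the windows of the members and 52.7% in all windows. The 27025 genes were not limited to protein-coding genes tested here, whereas all members were such genes, so the sets differ in more than membership. A match describes these letters only and does not show binding. The windows of 4 members are shown with the matches in capitals. Mrpl12 (chr11:120484387-120484686, plus strand) is the most abundant member and Mrps18c (chr5:100798509-100798808, plus strand) the least. Mrpl27 (chr11:94653541-94653840, plus strand) and Mrps27 (chr13:99344536-99344835, plus strand) are described further with the comparisons of AngII. Mrpl12 has the NRF1 letters 80 bases before the start, and Mrpl27 and Mrps18c have the ETS letters 55 and 156 bases before it. Mrps27, which lies head to head with Ptcd2, has the ETS letters 48 bases before the start and the YY1 letters 14 bases after it.
Mrpl12: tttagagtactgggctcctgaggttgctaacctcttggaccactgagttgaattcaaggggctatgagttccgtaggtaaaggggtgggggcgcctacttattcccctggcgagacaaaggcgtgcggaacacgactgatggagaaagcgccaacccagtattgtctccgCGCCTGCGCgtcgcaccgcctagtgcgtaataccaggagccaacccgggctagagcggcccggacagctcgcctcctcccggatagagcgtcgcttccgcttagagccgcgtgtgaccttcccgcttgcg
Mrpl27: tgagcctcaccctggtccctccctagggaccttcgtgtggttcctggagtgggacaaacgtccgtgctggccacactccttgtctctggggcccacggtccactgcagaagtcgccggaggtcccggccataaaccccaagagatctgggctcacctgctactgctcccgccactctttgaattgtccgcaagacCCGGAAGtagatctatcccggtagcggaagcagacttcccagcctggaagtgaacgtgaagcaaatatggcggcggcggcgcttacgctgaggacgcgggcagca
Mrps27: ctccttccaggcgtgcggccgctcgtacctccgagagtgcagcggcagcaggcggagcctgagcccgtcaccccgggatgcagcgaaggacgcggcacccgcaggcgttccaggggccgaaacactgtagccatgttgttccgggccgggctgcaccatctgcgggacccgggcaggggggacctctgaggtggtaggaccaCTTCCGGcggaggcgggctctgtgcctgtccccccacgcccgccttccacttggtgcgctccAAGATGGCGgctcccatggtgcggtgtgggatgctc
Mrps18c: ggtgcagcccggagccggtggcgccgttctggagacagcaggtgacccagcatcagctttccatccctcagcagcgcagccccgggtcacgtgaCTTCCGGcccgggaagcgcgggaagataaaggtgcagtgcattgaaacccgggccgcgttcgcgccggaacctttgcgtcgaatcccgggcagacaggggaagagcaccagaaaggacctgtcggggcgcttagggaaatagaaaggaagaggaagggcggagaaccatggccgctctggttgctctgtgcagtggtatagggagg

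On average, large subunit genes were expressed above small subunit genes, by an amount nearly constant over libraries. The mean log2 RPKM of the 48 Mrpl genes exceeded that of the 29 Mrps genes by 0.36 ± 0.04 (SD over 15 libraries), from 0.27 in S11 to 0.44 in S8. That SD describes libraries only. Over genes the SD was 0.71 log2 units for Mrpl and 0.85 for Mrps. Their quartiles overlapped, at 4.32 to 5.21 and 3.96 to 4.66 log2 RPKM. By group the difference was 0.36 ± 0.02 in control (n = 3), 0.37 ± 0.05 in AngII, 0.34 ± 0.05 in ldCil and 0.38 ± 0.01 in AngII + ldCil (n = 4 each), and the ranges of the 4 groups overlapped. When genes were assigned by their place in the mammalian structure (50 large, 26 small), the difference was 0.38. It was 0.25 without Mrps18c, the 1 member with a mean under 2 log2 RPKM. No test was made, since the genes of a subunit are not replicates.

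**Figure D2:**
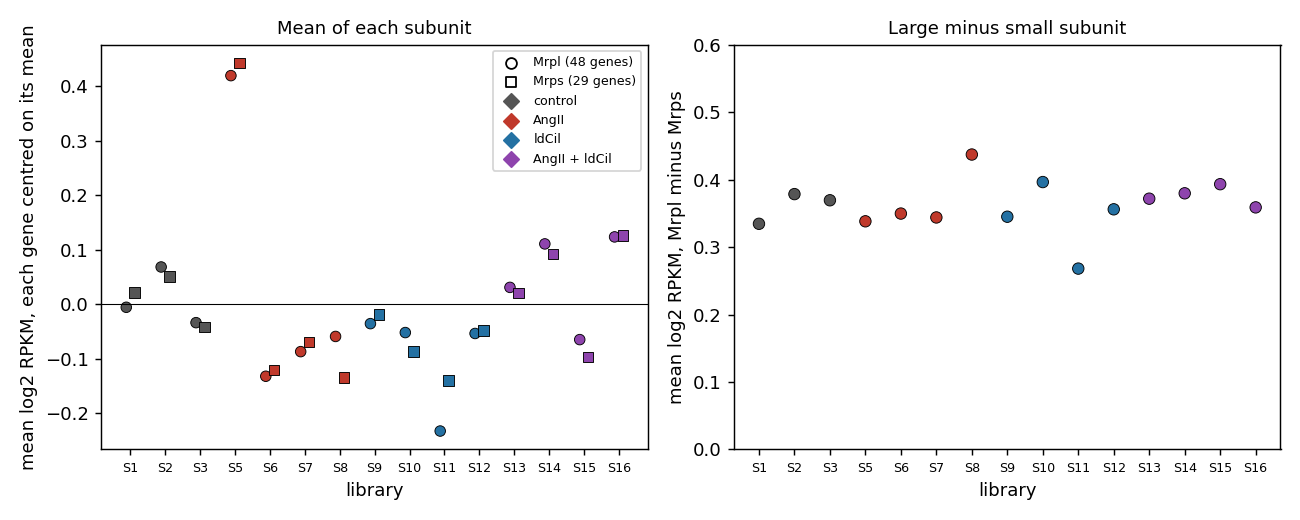
Left, the mean of the Mrpl genes (circles) and Mrps genes (squares) in each library after centring each gene on its mean over the 15 libraries, in log2 units. Right, mean Mrpl minus mean Mrps in log2 RPKM. The subunits move together, S5 stands at 0.42 and 0.44, and the difference stays between 0.27 and 0.44.

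Across libraries both subunits moved together and S5 stood apart. With each gene centred on its mean, the members averaged 0.43 log2 units in S5 and between −0.20 (S11) and 0.12 (S16) in the 14 other libraries. The control libraries were at 0.00, 0.06 and −0.04, the other AngII libraries at −0.13, −0.08 and −0.09, the ldCil libraries at −0.03, −0.06, −0.20 and −0.05, and the AngII + ldCil libraries at 0.03, 0.10, −0.08 and 0.12. Thus 3 of the 4 AngII libraries lay below every control library, and the fourth lay above every library. S10, S11 and S12 (ldCil) and S15 (AngII + ldCil) lay below every control library too. Between libraries at a like level of interferon-stimulated genes, the high ones had 0.00 and −0.04 in control (S1, S3), −0.03 and −0.06 with ldCil (S9, S10) and 0.43 with AngII (S5). The low ones had −0.13 and −0.08 with AngII (S6, S7), −0.20 and −0.05 with ldCil (S11, S12) and −0.08 and 0.12 with AngII + ldCil (S15, S16). No control library was among the low ones.

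S5 held the highest value of all 15 libraries for 51 of the 77 members (66.2%), against 21.8% of all genes tested. It exceeded the mean of the other AngII libraries in 73 members, by a median of 0.53 log2 units, where the median over all genes tested was −0.02. Both subunits took part, with medians of 0.53 for Mrpl and 0.53 for Mrps. The excess was greatest for members of low level, 1.61 log2 units for Mrps18c, 1.46 for Mrpl33, 1.29 for Mrpl1 and 1.24 for Mrps28. Mrps27, a protein of the small subunit found only in mitochondria with a mean of 3.84 log2 RPKM, had 4.77 log2 RPKM in S5 and 3.43 to 4.09 in the other libraries. Mrps9, with a mean of 4.25 log2 RPKM, had 5.30 in S5 and 3.95 to 4.39 elsewhere. The 4 exceptions were Mrps2 (−0.89), Mrpl50 (−0.37), Mrpl49 (−0.30) and Mrpl10 (−0.06). Mrps2, at 3.93 log2 RPKM in S5 and 4.35 to 5.05 elsewhere, was the 1 member for which S5 was lowest of all.

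Other groups of genes departed in S5 as well. Within AngII the gap was widest for the interferon-stimulated genes, at 2.10 log2 units in S5 and −2.03, −1.77 and −0.79 in S6, S7 and S8. The 78 cytosolic ribosomal proteins averaged 0.62 log2 units above their mean there, the 38 nuclear subunits of complex I 0.37, the 21 mitochondrial aminoacyl-tRNA synthetases 0.31 and the 13 mitochondrial translation factors 0.29. The 12 mitochondrially encoded genes averaged 0.06 and the 9 regulators of mitochondrial biogenesis −0.09. Over all genes tested, the S5 excess over the other AngII libraries fell with the length of the annotated exons, from a median of 0.18 in the shortest of 4 equal bins of genes to −0.20 in the longest. Among the members it was 0.50, 0.64, 0.44 and 0.91 from the shortest to the longest bin (42, 17, 11 and 7 members), so it was present at every length. All 8 macrophage markers were detected, and their mean ran from −1.52 in S16 to 0.77 in S14 in the libraries other than S5. What part cell makeup, RNA quality or the interferon-stimulated genes' state had in the S5 values was not tested.

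**Figure D3:**
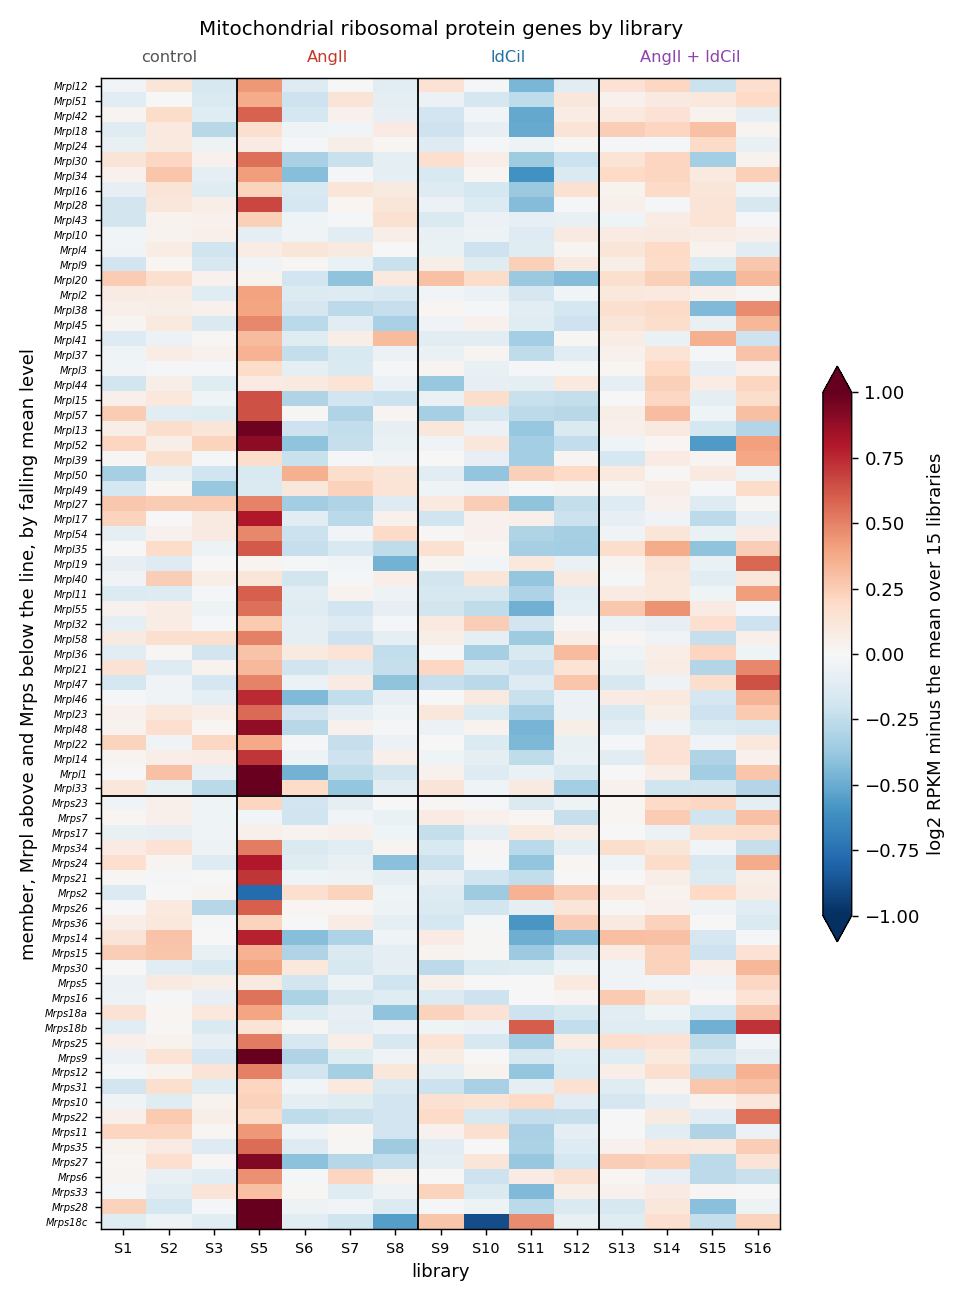
Each row is a member, the 48 Mrpl genes above the line and the 29 Mrps genes below it, each sorted by falling level. Each column is a library, and colour gives log2 RPKM minus the mean over the 15 libraries, from −1 (blue) to 1 (red). The S5 column is red for most members of both subunits, with Mrps2 in blue.

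The first comparison asked what AngII alone did to these genes. No member passed an adjusted p of 0.05 (limma, Benjamini-Hochberg, smallest adjusted p = 0.782), and neither did any of the 12848 genes (0%). The members were evenly divided, 42 higher and 35 lower in AngII, with a median log2 fold change of 0.02, the median of all genes also being 0.02. Only Mrpl49 had an unadjusted p under 0.05, which is 1 of 77 members against 6.04% of genes. Groups did not overlap for 0 members, against 8.74% of genes.

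Mrpl49, a large subunit protein found only in mitochondria whose gene lies 59 bases from the ribosomal protein gene Fau, had 4.42, 4.62 and 4.22 log2 RPKM in control and 4.45, 4.71, 4.83 and 4.74 in AngII. The groups overlapped through S5, the lowest AngII library, and the log2 fold change was 0.26 ± 0.12 (SE, limma, adjusted p = 0.782). Mrpl50 gave 4.28, 4.54 and 4.42 log2 RPKM in control and 4.47, 4.98, 4.79 and 4.75 in AngII, a fold of 0.33 ± 0.16 (SE, log2), and here too S5 alone lay within the control range. Mrps6 was the third member with the smallest p among those higher, at 0.22 ± 0.14 (log2, SE).

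Among the members that were lower, Mrpl27, whose bacterial counterpart reaches the peptidyl transferase centre, gave nearly equal controls, 4.85, 4.84 and 4.84 log2 RPKM. The AngII libraries had 5.08, 4.24, 4.28 and 4.46, so S5 lay above the controls and the other 3 lay well below them. The log2 fold change was −0.33 ± 0.19 (SE). Mrps22, a small subunit protein found only in mitochondria, had 4.01, 4.22 and 4.01 log2 RPKM in control and 4.15, 3.70, 3.74 and 3.77 in AngII, a fold of −0.24 ± 0.17. Mrpl20 followed at −0.27 ± 0.21 (log2, SE).

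Without S5 the balance turned. In that fit 57 of the 77 members were lower in AngII than in control and 20 higher, with a median log2 fold change of −0.11, while the median of all genes was 0.03. An unadjusted p under 0.05 was reached by 11 members (14.3%), 9 lower and 2 higher, against 12.8% of all genes, and none passed adjustment (smallest adjusted p = 0.383). The 9 were Mrpl27 (−0.52 on the log2 scale), Mrps14 (−0.40), Mrps27 (−0.38), Mrpl1 (−0.38), Mrpl30 (−0.34), Mrps15 (−0.33), Mrpl13 (−0.30), Mrpl15 (−0.27) and Mrpl58 (−0.27). The 2 higher ones were Mrpl50 (0.42) and Mrpl49 (0.34). Both subunits shared the direction, with medians of −0.11 for Mrpl and −0.11 for Mrps. S5 had been singled out for its high values in these same members, so a shift in this direction follows from leaving it out. The libraries left in this comparison also differed in the interferon-stimulated genes, at 2.18, 0.55 and 2.74 log2 units in control and −2.03, −1.77 and −0.79 in AngII. All 15 of those genes were lower with AngII, with a median log2 fold change of −3.39 without S5 and −2.44 with it, and their part in the members' values was not tested.

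A fit that weights libraries by their noise (limma arrayWeights) changed the calls. It gave S1 a weight of 7.01 and S5 a weight of 0.113. S2 had 0.974, S3 1.64, S6 1.65, S7 3.39 and S8 0.363. The ldCil libraries S9 to S12 had 2.02, 2.75, 0.209 and 0.317. The AngII + ldCil libraries S13 to S16 had 3.47, 3.88, 0.311 and 0.253. AngII against control thus rested mainly on S1, S6 and S7, at 2.18, −2.03 and −1.77 log2 units in the interferon-stimulated genes. That difference and the treatment cannot be told apart in this fit. With these weights, 25 members passed an adjusted p of 0.05 between AngII and control, 4 higher and 21 lower, or 32.5% of members against 48.6% of all genes. The median fold of the members in that fit was −0.08 on the log2 scale.

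**Figure D4:**
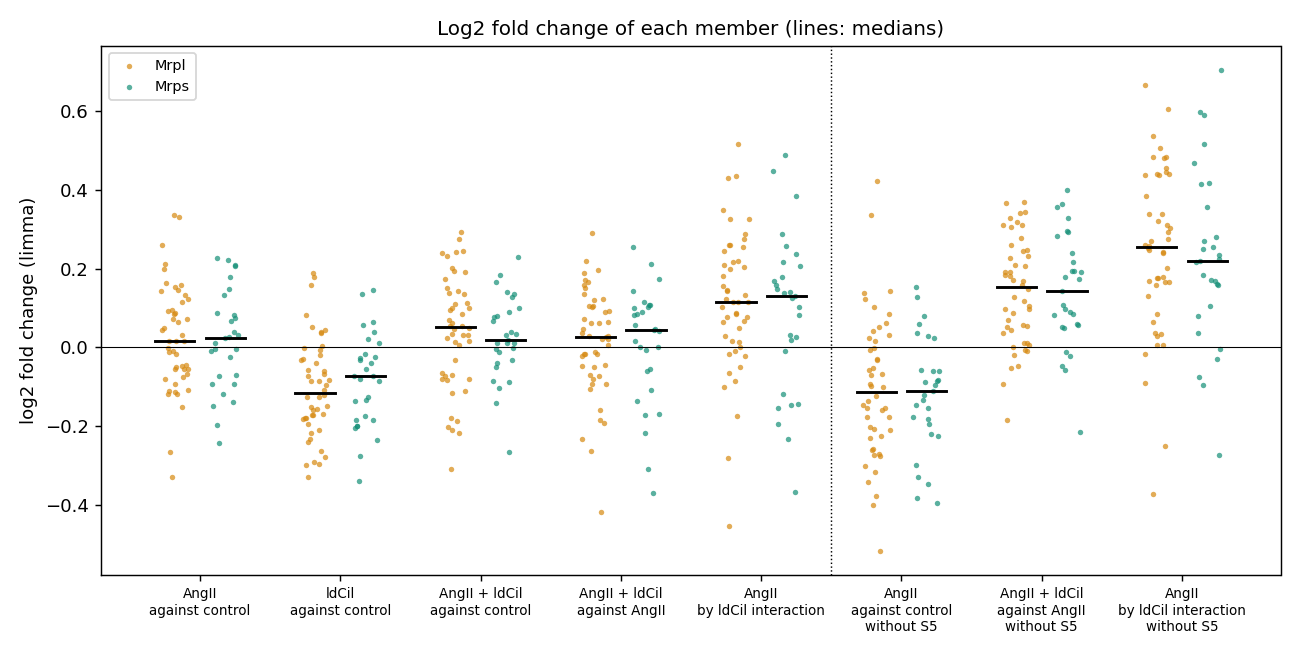
Log2 fold change of each Mrpl gene (orange) and Mrps gene (green) in the 5 comparisons with all libraries and, right of the dotted line, in 3 of them without S5, with black lines for medians. Without S5 the medians move to −0.11 for AngII against control, 0.15 and 0.14 for AngII + ldCil against AngII, and 0.26 and 0.22 for the interaction.

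With ldCil alone most members lay slightly lower, none of them past the test. In all, 61 of the 77 members were lower and 16 higher than in control, with a median log2 fold change of −0.09 while that of all genes was 0.00. Medians were −0.12 for Mrpl and −0.07 for Mrps. No member passed an adjusted p of 0.05 (limma, smallest adjusted p = 0.966) or an unadjusted one, against 0% and 1.95% of all genes. The groups did not overlap for 6 members (7.79%), close to the 6.87% of all genes, so this count does not set the members apart. All 6 were lower with ldCil and carried Mrpl symbols, as do 48 of the 77 members. They were Mrpl27, Mrpl55, Mrpl57, Mrpl58, Mrpl14 and Mrpl38. Library weights called 0 members here, and 0.0233% of genes.

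For Mrpl58 the controls had 4.29, 4.36 and 4.37 log2 RPKM and the ldCil libraries 4.26, 4.12, 3.85 and 4.27. The highest ldCil library (S12) and the lowest control (S1) nearly met, and the log2 fold change was −0.22 ± 0.16 (SE). For Mrpl27 the ldCil libraries had 4.69, 4.83, 4.18 and 4.35 log2 RPKM, all under the controls, a fold of −0.33 ± 0.19. The members with the smallest p among those lower were Mrpl22, which lines the exit tunnel, at −0.30 ± 0.15, then Mrpl27 and Mrps15 at −0.28 ± 0.17 (log2, SE). Those higher were led by Mrpl9 at 0.18 ± 0.12, Mrpl49 at 0.16 ± 0.12 and Mrpl50 at 0.19 ± 0.16. Within the ldCil group S11 was low across the large subunit, at −0.23 log2 units for the mean of Mrpl, against −0.04, −0.05 and −0.05 in S9, S10 and S12.

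With AngII + ldCil the members lay on both sides of the controls. In that comparison 51 members were higher and 26 lower, with a median log2 fold change of 0.04 where all genes had 0.05. No member passed an adjusted p of 0.05 (limma, smallest adjusted p = 0.849) or an unadjusted one, against 0% and 5.62% of genes. The groups did not overlap for 9 members (11.7%), against 13.5% of genes. Of these, Mrpl50, Mrpl51, Mrps16 and Mrps2 were higher than control and Mrpl27, Mrpl58, Mrps11, Mrpl17 and Mrpl48 were lower.

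The smallest p among members higher than control was that of Mrpl18, with 5.41, 5.62 and 5.25 log2 RPKM in control and 5.77, 5.74, 5.82 and 5.55 with AngII + ldCil. S16 alone lay within the control range, and the log2 fold change was 0.29 ± 0.14 (SE). Mrpl49 followed at 0.25 ± 0.12 and Mrps30 at 0.23 ± 0.14. Mrps11 had 4.12, 4.12 and 3.93 log2 RPKM in control and 3.91, 3.80, 3.61 and 3.85 with AngII + ldCil, a fold of −0.27 ± 0.16, and Mrpl27 (−0.31 ± 0.19) and Mrpl58 (−0.19 ± 0.16) were the next 2 among those lower. Without S16 the median of the members was 0.03 and 46 members were higher. With library weights, 11 members passed an adjusted p of 0.05 (8 higher, 3 lower), or 14.3%, against 18% of genes.

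The question of the design was whether ldCil changes cells given AngII. AngII + ldCil and AngII differed little with all libraries in the fit. Here 47 members were higher with AngII + ldCil and 30 lower, with a median log2 fold change of 0.03 and 0.01 for all genes. No member passed an adjusted p of 0.05 (limma, smallest adjusted p = 1.000), against 0% of genes, and 1 had an unadjusted p under 0.05, against 2.58% of genes. The groups overlapped for every member, against 1.55% of genes whose groups did not.

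That member was Mrps6, whose bacterial counterpart pairs with S18 in the small subunit. It had 4.19, 3.72, 3.95 and 3.77 log2 RPKM in AngII and 3.75, 3.66, 3.47 and 3.51 in AngII + ldCil, a log2 fold change of −0.31 ± 0.13 (SE, limma, adjusted p = 1.000). Only S13 lay above the lowest AngII library, S6. Mrps28 (−0.37 ± 0.24) and Mrpl33 (−0.42 ± 0.29) were next among those lower, and for both the AngII mean rested on S5. Mrps28 had 4.11 log2 RPKM in S5 against 2.80 to 2.91 in the other AngII libraries, and Mrpl33 had 3.70 against 1.96 to 2.53.

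Of the members higher with AngII + ldCil, Mrpl19 had the smallest p, at 4.52, 4.48, 4.46 and 4.02 log2 RPKM in AngII and 4.52, 4.63, 4.43 and 5.07 in AngII + ldCil. The low value belonged to S8 and the high one to S16, and the log2 fold change was 0.29 ± 0.14 (SE). In Mrpl19, 36% of the exonic bases are overlapped by Gcfc2 on the opposite strand. Mrps22 had 3.96, 4.05, 3.85 and 4.50 log2 RPKM in AngII + ldCil, a fold of 0.25 ± 0.16 over AngII, and Mrpl9 a fold of 0.17 ± 0.11. For Mrps22 the highest value was again that of S16.

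**Figure D5:**
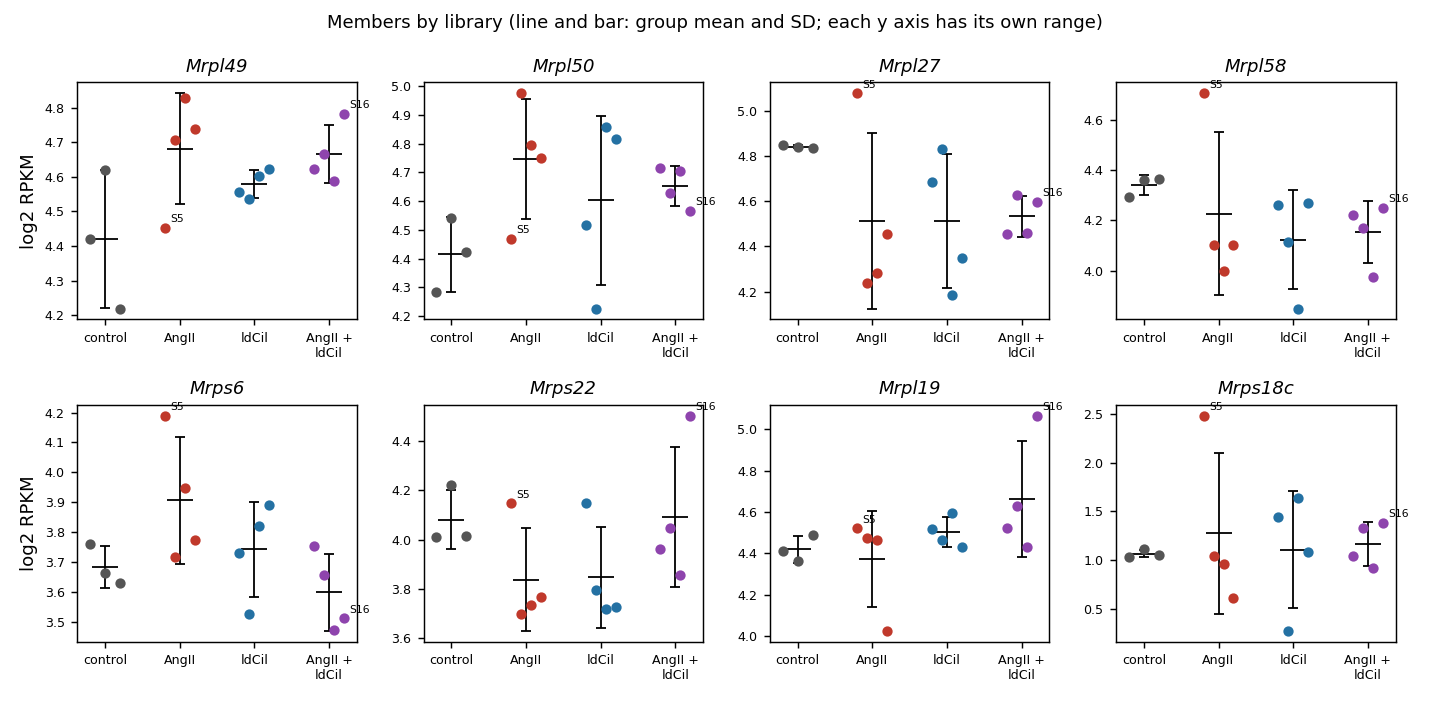
Log2 RPKM of 8 members in every library by group, with the group mean and SD in black and S5 and S16 named. S5 is the highest AngII library for all but Mrpl49 and Mrpl50, for which it is the lowest, and S16 is the highest of its group for Mrpl49, Mrpl58, Mrps22, Mrpl19 and Mrps18c.

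Leaving out S5 again moved the whole set. Without it 65 of the 77 members were higher with AngII + ldCil than with AngII, with a median log2 fold change of 0.15 where all genes had 0.02. An unadjusted p under 0.05 was reached by 12 members, all higher, which is 15.6% of members against 2.63% of genes, and none passed adjustment (limma, smallest adjusted p = 0.997). They were led by Mrps27 (0.40 on the log2 scale), Mrpl34 (0.37), Mrpl45 (0.37), Mrps22 (0.36) and Mrpl46 (0.34), with Mrpl19, Mrps16, Mrpl55, Mrpl15, Mrps35, Mrpl37 and Mrpl2 between 0.21 and 0.34. Mrpl45, which tethers the mitochondrial ribosome to the inner membrane, had 4.62, 4.78 and 4.56 log2 RPKM in S6 to S8 and 5.00, 5.06, 4.81 and 5.21 with AngII + ldCil, 2 ranges that do not overlap. In S5 it had 5.37, above all of them. S5 had been singled out by its values in these members, so the direction of the shift follows from leaving it out. The shares of members set beside those of all genes are not independent of that choice. Without S16, and with S5 kept, the median was 0.01 (without S6 it was −0.01, with 34 members higher) and no member had an unadjusted p under 0.05. With library weights 27 members passed an adjusted p of 0.05, all of them higher (35.1%), against 31.5% of genes.

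The interaction asks whether ldCil acted differently in cells with AngII than in cells without it. The members leaned to positive values, 59 of 77, with a median of 0.12 on the log2 scale where all genes had 0.02. None passed an adjusted p of 0.05 (limma, smallest adjusted p = 0.958), against 0% of genes, or an unadjusted one, against 3.86%. The smallest p among positive values belonged to Mrpl34 at 0.52 ± 0.25, Mrps22 at 0.49 ± 0.23 and Mrpl55 at 0.44 ± 0.24 (log2, SE). Negative values were led by Mrps6 at −0.37 ± 0.19, Mrpl50 at −0.28 ± 0.21 and Mrpl49 at −0.18 ± 0.16. Without S5, 68 members were positive with a median of 0.24, and 16 had an unadjusted p under 0.05, all positive (20.8% against 7.13% of genes, smallest adjusted p = 0.633). These values too depend on S5 having been singled out by its values in the members. Without S16, and with S5 kept, 57 members were positive with a median of 0.08. No member then had an unadjusted p under 0.05 (limma), against 3.37% of genes. With library weights 15 members passed an adjusted p of 0.05, all positive (19.5%), against 18.6% of genes.

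For Mrpl55, a large subunit protein found only in mitochondria, the values behind the interaction were 4.36, 4.40 and 4.27 log2 RPKM in control and 4.87, 4.20, 4.13 and 4.24 in AngII. They were 4.13, 4.07, 3.83 and 4.22 in ldCil and 4.59, 4.76, 4.40 and 4.31 in AngII + ldCil. All ldCil libraries lay below all controls, while with AngII + ldCil all 4 lay above S6, S7 and S8. S5, at 4.87, lay above all 4 of them, so the AngII and AngII + ldCil groups overlapped.

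The rest of the mitochondrial translation pathway was read from the same fit, and no gene of these lists passed an adjusted p of 0.05 in any comparison. Of the 28 genes for assembly of the ribosome and modification of its RNA, 23 were higher with AngII than in control, with a median log2 fold change of 0.14, and 2 had an unadjusted p under 0.05, against 6.04% of all genes. Without S5, 17 were higher, with a median of 0.07. The smallest p belonged to Mterf3, a negative regulator of mitochondrial transcription that also acts in ribosome assembly, at 0.43 ± 0.19 (log2, SE). The same list had 19 genes higher with ldCil (median 0.08, led by Mterf3 at 0.39 ± 0.19) and 23 higher with AngII + ldCil (median 0.15, led by the RNA methyltransferase gene Mrm2 at 0.50 ± 0.21). Against AngII, 15 were higher with AngII + ldCil (median 0.03, led by Mterf4 at 0.23 ± 0.14). Without S5 it was 20 with a median of 0.07, and without S16 it was 10 with a median of −0.06 and Mterf4 at 0.11 ± 0.13. For the interaction 11 were positive (median −0.09, led by Trub2 at −0.32 ± 0.17). Without S5, 14 were positive with a median of −0.02, and without S16, 8 with a median of −0.09. These 3 comparisons with control share the control libraries.

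The 13 translation factors had medians of −0.06 with AngII, −0.15 with ldCil and −0.01 with AngII + ldCil against control, on the log2 scale. Without S5 the first was −0.04, and without S16 the last was 0.03. The smallest p belonged to the release factor gene Mtrf1l (0.50 ± 0.25 with AngII and 0.36 ± 0.25 with AngII + ldCil) and, with ldCil, to the recycling factor gene Mrrf (−0.31 ± 0.18). Against AngII, the initiation factor gene Mtif2 led at 0.22 ± 0.11 with AngII + ldCil, and Taco1, a translational activator, led the interaction at 0.38 ± 0.19. Of the 21 mitochondrial aminoacyl-tRNA synthetases, Vars2, which charges valine tRNA, had −0.37 ± 0.14 with AngII, 0.35 ± 0.13 with AngII + ldCil against AngII and 0.49 ± 0.19 for the interaction. Aars2 led with ldCil at −0.19 ± 0.15 and Sars2 with AngII + ldCil at 0.34 ± 0.17. The medians of this list were 0.05, −0.07 and 0.03 in the comparisons with control, and the one for AngII turned to −0.04 without S5. Among the proteins of the ribosome with other symbols, Dap3 led with AngII at 0.18 ± 0.14, Aurkaip1 with ldCil at −0.04 ± 0.12 and Chchd1 with AngII + ldCil at 0.12 ± 0.17. Dap3 also led with AngII + ldCil against AngII at −0.20 ± 0.13 and for the interaction at −0.16 ± 0.19. Its values with AngII rested on S5, at 5.87 log2 RPKM against 5.21 to 5.32 in S6 to S8 and 5.10 to 5.29 in control. Without S5 the fold was 0.03 ± 0.09 with AngII and −0.05 ± 0.09 with AngII + ldCil against AngII, and without S16 that of Chchd1 was −0.01 ± 0.16.

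Genes that act before the ribosomal proteins, and those they serve, were read in the same way. Of the 6 tested genes for transcription of mitochondrial DNA, the elongation factor gene Tefm led with AngII (−0.24 ± 0.15), with ldCil (−0.20 ± 0.15), with AngII + ldCil against AngII (0.23 ± 0.14) and for the interaction (0.43 ± 0.21), and the RNA polymerase gene Polrmt led with AngII + ldCil against control (0.18 ± 0.13, all log2 with SE). Among the regulators of biogenesis, Gabpb1, a subunit of GABP, had 0.33 ± 0.16 with AngII, the coactivator gene Pprc1 0.50 ± 0.29 with ldCil and −0.68 ± 0.39 for the interaction, and Ppargc1b 0.31 ± 0.14 with AngII + ldCil against control and 0.18 ± 0.13 against AngII. Without S5 the last value was 0.27 ± 0.12, and without S16 Polrmt had 0.11 ± 0.14. The mitochondrially encoded genes, which supply the messages and the RNA of this ribosome, had medians of 0.18 with AngII, 0.11 with ldCil and 0.18 with AngII + ldCil against control. Their smallest p belonged to the small ribosomal RNA gene mt-Rnr1 with AngII (0.70 ± 0.27), with ldCil (0.50 ± 0.27) and for the interaction (−0.79 ± 0.37), to mt-Nd6 with AngII + ldCil against control (0.49 ± 0.20) and to mt-Co2 with AngII + ldCil against AngII (−0.48 ± 0.34, or −0.26 ± 0.34 without S5 and −0.25 ± 0.34 without S16). These libraries were made from polyadenylated RNA, so the level of a ribosomal RNA in them also depends on its capture.

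For comparison, the nuclear subunits of complex I and the cytosolic ribosomal proteins were read beside the members. With AngII, 37 of the 38 complex I genes were higher than in control (median 0.26 on the log2 scale) and 76 of the 78 cytosolic ribosomal protein genes lower (median −0.25), against 42 higher and 35 lower among the 77 mitochondrial ribosomal proteins. Without S5, 29 complex I genes were higher (median 0.13) and 78 cytosolic ribosomal protein genes lower (median −0.49), against 57 lower among the members. With ldCil, 61 members and 77 cytosolic ribosomal protein genes were lower (medians −0.09 and −0.26), and the complex I genes were divided, 17 higher and 21 lower. The cytosolic ribosomal proteins had −0.25 and −0.34 log2 units in S11 and S12. S9 and S10, at 0.20 and 0.14, lay near the controls (0.21, 0.15 and 0.22). Within ldCil this was the same division as in the interferon-stimulated genes. In AngII + ldCil, S15 and S16 were both low in the interferon-stimulated genes (−1.91 and −1.85) but had −0.66 and 0.34 for the cytosolic ribosomal proteins. None of these genes passed an adjusted p of 0.05 (limma), and whether the lists differ from one another was not tested.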

How the data were processed

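RNA was taken from cultured mouse cardiomyocytes with a column kit and a DNase step, and libraries were prepared by poly(A) capture and sequenced on an Illumina NextSeq. Per the labels, reads were aligned to GRCm38 (mm10) with HISAT2 and counted with HTSeq, with versions not given in the sources used here, as is also true of strandedness and the annotation release. The values the authors deposited are log2 RPKM after conditional quantile normalisation (cqn). This corrects for transcript length and GC content, so differences that follow these properties may have been altered. The highest values recur across genes and libraries, such as 11.73 in the cardiomyocyte markers Actc1 and Nppa and 12.40 in mt-Co1. Differences among the most abundant genes, several cardiomyocyte markers included, may therefore be compressed. Depth and counting error are unknown, since no counts were analysed here. Unnamed columns at the end of the table hold fragments of gene descriptions and no values.

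Gene identifiers were matched to GENCODE M21, where 14329 of 14337 were found, 12695 with the same version, and 1 pseudogene with a member-like symbol was left out. The 12848 genes whose log2 RPKM averaged 0 or more were tested. In limma 3.58.1 (R 4.3.3) the 4 group means were estimated from all 15 libraries together, without covariates and with moderation along a trend on expression. Tests were 2-sided, with Benjamini-Hochberg adjustment across the 12848 genes. No value was added before the log2. The fit was tested on simulated data with independent noise and no outlying library, so this does not bear on libraries such as S5. List means used genes centred on their mean over the 15 libraries.

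Named members were for each comparison the 3 higher and the 3 lower ones of smallest p, the 5 highest and 5 lowest in level, the 5 with the largest and the 5 with the smallest SD, 7 chosen by role, and members whose groups did not overlap, where 10 or fewer. For each pathway list the gene with the smallest p in each comparison was named. Members named in the fits without S5, those named for their values in S5 and their partners in the genome were chosen after their values were seen. Members, lists and tests were chosen with earlier results of these data known. The alternatives were to drop the filter or raise it to a mean of 2, 1 added to RPKM, libraries centred on their medians, a fit of only the groups compared, library weights, and each library left out in turn.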

Additional observations from a re-analysis of the deposited data

Results flagged for a closer look

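In groups of 4 libraries, values were marked where the gap between the most extreme library and its nearest neighbour took up an unusually large share of the range of the group (Dixon's test at 95%). Chance marks about 1 group in 20. Of 102 such groups among the 34 named members 7 were marked, and of 30 groups among list means 5.

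The mean of all members in AngII was marked with a gap of 0.915 of the range, as were the Mrpl mean (0.868) and the Mrps mean (0.887), each for S5. Single members marked in AngII for S5 were Mrps28 (0.915), Mrpl58 (0.852), Mrpl55 (0.85) and Mrps22 (0.848), and each was highest of its group in S5. Mrpl19 in AngII was marked for the low value of S8 (0.882).

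The Mrpl mean in ldCil was marked for the low value of S11 (0.908), and the mean of the mitochondrially encoded genes in the same group for the high value of S12 (0.902). The latter list holds genes at very unequal levels, from 1.08 to 12.35 log2 RPKM. In AngII + ldCil, Mrps5 was marked for the high value of S16 (0.941) and Mrpl12 for the low value of S15 (0.843).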

How the results depend on the processing

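No member passed an adjusted p of 0.05 under any alternative other than library weights, which gave 25 members for AngII, 11 for AngII + ldCil against control, 27 for AngII + ldCil against AngII and 15 for the interaction, and 0 for ldCil. With these weights 32, 8, 22, 32 and 36 members had an unadjusted p under 0.05 in the order AngII, ldCil, AngII + ldCil, each against control, AngII + ldCil against AngII, and interaction, against 55.5%, 12.3%, 32.7%, 44.9% and 36.4% of all genes. In fits limited to the groups compared the first 4 of these counts were 0, 1, 3 and 0, against 8.18%, 3.2%, 10.7% and 1.29% of all genes. With 1 library left out they ranged from 0 to 11, 0 to 3, 0 to 2, 0 to 12 and 0 to 16, and the highest count came without S5 in each comparison (for AngII + ldCil against control, without S2 as well). The median log2 fold of the members then ranged from −0.11 to 0.07, −0.14 to −0.06, 0.02 to 0.08, −0.01 to 0.15 and 0.06 to 0.24. For the comparisons that hold AngII libraries the extremes came without S5 and without S6, and without S6 the median for AngII + ldCil against AngII turned to −0.01, with 34 members higher. The other extremes came without S9 and S11 for ldCil and without S14 and S15 for AngII + ldCil against control. The subunit difference was 0.25 for members with a mean of at least 2 and 0.36 to 0.37 with 1 library left out. Mrpl33 in AngII + ldCil against AngII turned to 0.069 with library weights. Filters, 1 added to RPKM and median centring moved no count of members by over 1.5 times. Depth is unknown, the groups hold 3 or 4 libraries, and a comparison with AngII rests on whether S5 is kept. The cause was not tested. No paired analysis was possible because the labels name libraries by a running number only, so the replicate numbers within groups follow the order of the libraries and tie no library to one of another group.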
